A study of Homo sapiens with 24 samples.

Results

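The genes described here are 9 established transcriptional targets of the tumour suppressor p53, namely CDKN1A, MDM2, BBC3, GDF15, ZMAT3, SESN1, TP53I3, FAS and RRM2B. They were found by their names in the deposited gene tables. All 9 were present among 60658 genes, and all 9 passed the filter on low counts in every comparison.

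Poly(A) RNA was sequenced from human cells labelled SH-SY5Y, a neuroblastoma line, 48 h after transfection. Each of 4 setups was meant to deplete the circular RNA ciRS-7 and had its own non-targeting control (NTC), with 3 libraries per group, 8 groups and 24 libraries. The circular RNA has no poly(A) tail, and its own level was not analysed here. The question was whether a knockdown (KD) or its way of delivery moved other transcripts.

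In the agoshRNA setup the cells received a vector for a short hairpin RNA of a form named for Argonaute, and no nuclease is named. In the gRNA and pre-gRNA setups they received a CasRx-GFP plasmid, which encodes an RNA-guided RNA nuclease with a fluorescent tag, together with a plasmid for a mature or a precursor guide. The fourth setup, syn-gRNA, used a chemically synthesised guide, whose delivery the labels do not describe. Lipofection delivered the plasmids in the other 3 setups. No untransfected cells were among the samples, so every level below is one after transfection. Nothing says that the 3 libraries of a group came from separate cultures, so p-values measure only the spread between these libraries. Libraries are named by setup, arm and the letter A, B or C of their column.

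p53 is kept low in unstressed cells because MDM2, itself a product of a p53 target gene, ubiquitinates it. DNA damage, nucleolar stress and other insults release p53 from that loop, and it then binds a response element made of a pair of adjacent half-sites in or near its target genes. The targets halt the cell cycle, promote cell death, supply nucleotides for repair and adjust metabolism, and several keep some expression without stress.

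The promoters of these genes differ in whether they hold the element near a start. Windows of 300 bases, from 250 bases before to 50 bases from an annotated start, were taken from RefSeq for GRCh38.p14. For 8 of the 9 members 16 windows were used, and RRM2B was left out of this search. The p53 response element was searched on both strands as 2 adjacent half-sites of 10 bases each, 20 bases with no spacer. At most 2 mismatches occurred in 0.649% of 35116 windows and at most 3 mismatches in 5.20%. The rule for matches was chosen after the windows had been seen. The 4 genes with a window of at most 3 mismatches are shown first, with the 20 bases of the closest match in capitals. Only the closest match of each window was kept, so lower-case bases can hold further matches. CDKN1A follows with its GC boxes in capitals, because it came closest to the test's threshold between setups, without passing it.
SESN1: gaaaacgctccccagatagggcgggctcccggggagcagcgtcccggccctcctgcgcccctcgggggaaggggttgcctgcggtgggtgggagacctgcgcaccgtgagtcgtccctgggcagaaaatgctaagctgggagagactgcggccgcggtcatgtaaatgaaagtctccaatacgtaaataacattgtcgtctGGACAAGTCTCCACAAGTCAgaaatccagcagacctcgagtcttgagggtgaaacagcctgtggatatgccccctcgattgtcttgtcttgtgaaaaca
FAS: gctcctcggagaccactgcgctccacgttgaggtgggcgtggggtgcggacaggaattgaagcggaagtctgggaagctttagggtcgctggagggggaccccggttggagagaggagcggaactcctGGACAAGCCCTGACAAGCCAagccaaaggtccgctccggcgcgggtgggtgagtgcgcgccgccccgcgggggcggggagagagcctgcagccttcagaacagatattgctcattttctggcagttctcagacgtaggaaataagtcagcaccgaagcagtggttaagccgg
MDM2: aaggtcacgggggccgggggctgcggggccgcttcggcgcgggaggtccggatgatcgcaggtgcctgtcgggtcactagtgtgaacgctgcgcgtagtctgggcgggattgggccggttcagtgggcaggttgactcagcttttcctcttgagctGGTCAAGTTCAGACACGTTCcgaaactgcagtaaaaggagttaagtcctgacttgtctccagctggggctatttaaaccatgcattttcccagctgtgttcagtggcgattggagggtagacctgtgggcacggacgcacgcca
GDF15: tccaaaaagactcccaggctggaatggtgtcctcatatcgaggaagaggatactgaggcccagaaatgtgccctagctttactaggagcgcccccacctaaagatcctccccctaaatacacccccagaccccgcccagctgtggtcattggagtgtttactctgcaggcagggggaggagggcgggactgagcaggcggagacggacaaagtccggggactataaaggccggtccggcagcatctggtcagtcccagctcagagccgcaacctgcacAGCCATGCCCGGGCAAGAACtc
CDKN1A: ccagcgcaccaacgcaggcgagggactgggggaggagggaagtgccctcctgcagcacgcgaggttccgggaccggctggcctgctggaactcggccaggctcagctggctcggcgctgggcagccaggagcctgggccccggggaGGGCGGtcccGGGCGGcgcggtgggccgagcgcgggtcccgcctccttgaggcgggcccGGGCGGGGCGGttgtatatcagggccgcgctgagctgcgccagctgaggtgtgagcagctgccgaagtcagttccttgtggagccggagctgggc

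The SESN1 window was chr6:109008939-109009238 on the minus strand, at the most downstream of its 3 starts, and its match had 3 mismatches. In FAS the window was chr10:88991181-88991480, plus strand, and its match with 2 mismatches lay at positions -122 to -103 from that start and downstream of the other 2 annotated starts. The MDM2 window was chr12:68808767-68809066, plus strand. It belongs to an internal start of the gene, the one known for its response to p53. Its closest match had 2 mismatches at positions -94 to -75 from the start. A further stretch downstream of that match has 3 mismatches and stands in lower case. In GDF15 the window was chr19:18385908-18386207, plus strand, and the match with 3 mismatches lay 28 to 47 bases past the start, inside the transcript. The window of CDKN1A was chr6:36678464-36678763, plus strand, and its closest match had 5 mismatches. The well-known p53 elements of CDKN1A lie further upstream than this window reaches. It held 4 GC boxes, the letters GGGCGG or, on the other strand, CCGCCC, with overlapping matches counted. A GC box occurred in 45.0% of all windows and 3 or more in 15.8%. A match describes letters and not a bound site, and the gene counts do not tell which start was used.

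The libraries held between 10994974 (syn-gRNA KD library C) and 16233777 counts (pre-gRNA NTC library A). They differed in the balance of low-GC and high-GC genes. The median log2 deviation of genes below the lower quartile of GC content minus that of genes above the upper quartile, with the members left out, ran from -1.64 in agoshRNA KD library A to 1.23 in agoshRNA KD library B. This GC difference was negative in 10 libraries. All 6 syn-gRNA libraries were positive, between 0.20 and 0.67. Most markers of noradrenergic neuroblastoma went against the label. CPM are counts divided by the library total and scaled to the same total for all. Of 13 markers, 8 averaged below 1 CPM, and their median was 0.129 CPM. TH, DBH, STMN2, ELAVL4 and PHOX2A had at most 5 counts in any library. The 4 that averaged above 10 CPM were GATA2 (35.7), TBX2 (22.0), HAND1 (21.4) and CHRNA3 (13.0). The summed level of that list lay between 85.4 and 102 CPM over the 8 groups. Most kidney-lineage genes were present, 6 of 8 above 10 CPM with a median of 27.3 CPM, while LHX1 averaged 1.57 and PAX8 0.01 CPM. The cells are therefore called the transfected cells here.

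The 9 targets covered a wide range of basal levels. CDKN1A, which encodes the cyclin-dependent kinase inhibitor p21, was the most abundant per length, with a median of 12.8 RPKM, which are CPM divided by exon length in kilobases, over 24 libraries and a range of 6.71 to 23.5. The gene lies at chr6:36644237-36655116 of hg19, the build of the deposited tables. BBC3, which encodes the pro-apoptotic BH3-only protein PUMA, followed with a median of 9.30 RPKM and a range of 5.01 to 15.5. It lies at chr19:47724079-47736023.

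Below these 2 genes the levels stood closer together. SESN1, a stress-induced inhibitor of mTORC1 signalling at chr6:109307640-109416022, had a median of 4.20 RPKM. MDM2, the ubiquitin ligase at chr12:69201956-69244466, had a median of 3.02 RPKM. RRM2B, the p53-inducible small subunit of ribonucleotide reductase at chr8:103216730-103251346, had a median of 3.03 RPKM. The RPKM of RRM2B ran from 0.604 to 7.33, that of MDM2 from 0.746 to 6.05 and that of SESN1 from 1.42 to 5.86. These ranges overlapped, but the genes were measured in the same libraries. Their order within libraries was not tested.

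The remaining 4 genes were lower. GDF15, a secreted stress cytokine at chr19:18485541-18499986, had a median of 2.08 RPKM. FAS, a death receptor at chr10:90750339-90775542, had a median of 1.98 RPKM. ZMAT3, a zinc-finger RNA-binding protein at chr3:178735011-178790067, had a median of 1.83 RPKM. Their ranges overlapped, and the order among these 3 was not tested within libraries. TP53I3, a quinone oxidoreductase at chr2:24300303-24308731, was lowest with a median of 0.953 RPKM and 20 to 56 counts per library, the thinnest basis of the 9.

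Some of these rows share their span with other genes, and the libraries did not keep the strand. TP53I3, with a mean of 33.0 counts, overlaps FAM228B on the opposite strand, which averaged 49.1 counts. FAS, with a mean of 114.3 counts, overlaps the opposite gene ACTA2, which averaged 166.7 counts. MDM2 averaged 579.4 counts and overlaps CPM, here the carboxypeptidase gene, with 67.1 counts on the opposite strand. It also overlaps RP11-611O2.5, with 126.8 counts on the opposite strand, and RP11-611O2.3, with 62.4 counts on the same strand. SESN1, with a mean of 280.7 counts, overlaps RP11-787I22.3 on the opposite strand, which averaged 47.3 counts. Reads from the shared parts cannot be told apart by strand.

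**Figure D1:**
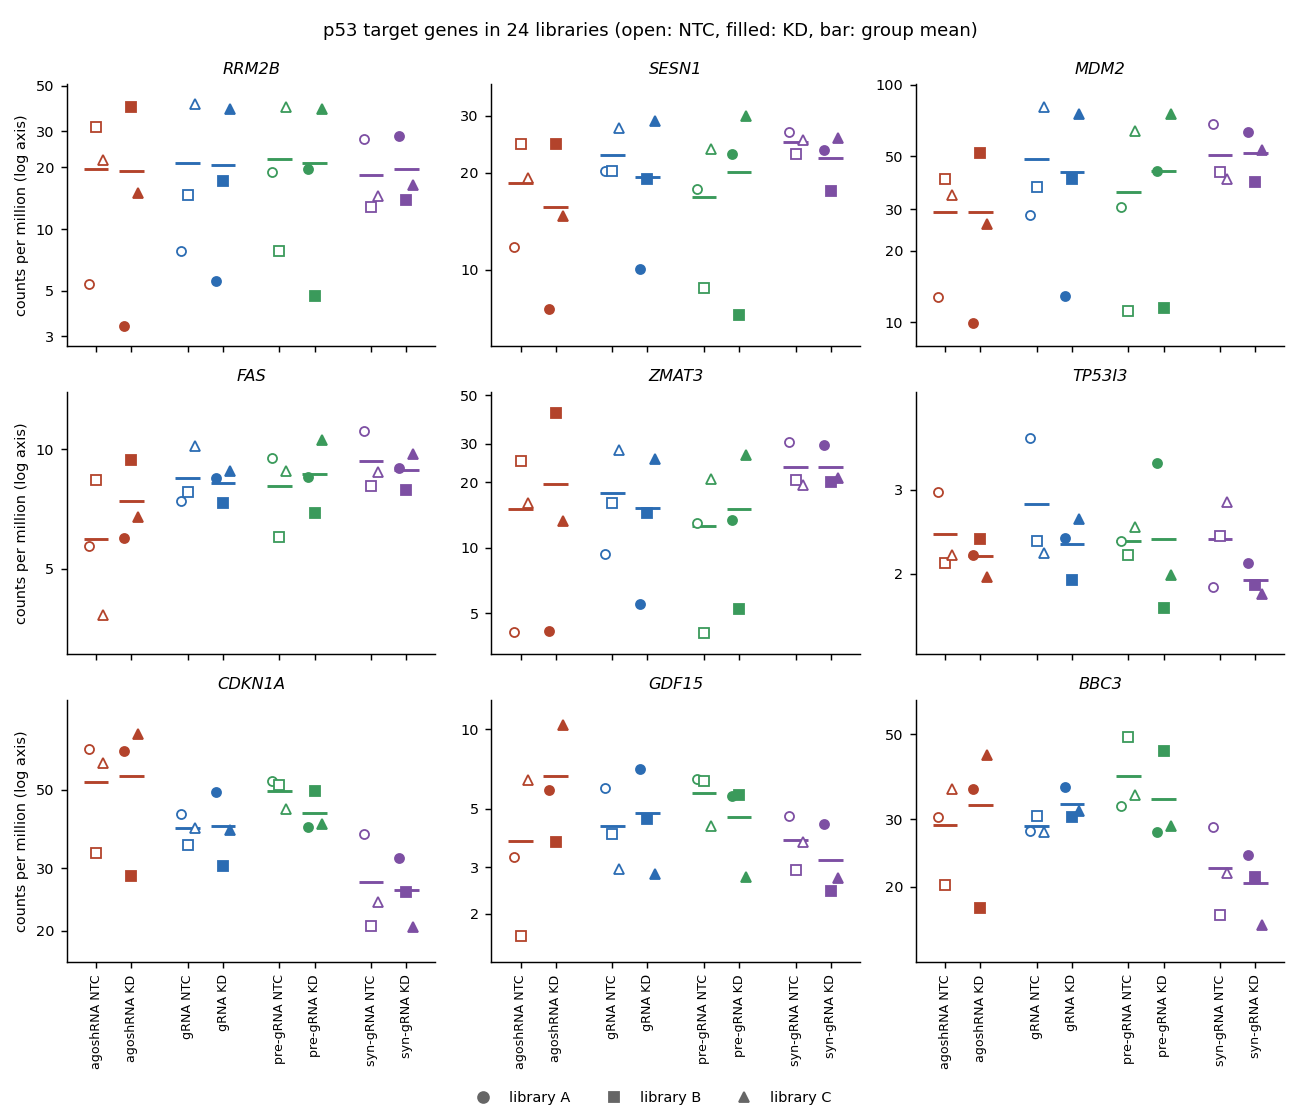
CPM of the 9 genes (log axis) in each of the 24 libraries, by setup and arm, with open symbols for NTC, filled symbols for KD, symbol shapes for library letters and bars for group means. RRM2B, ZMAT3 and MDM2 span 12.1-fold, 10.2-fold and 8.11-fold over the libraries, and KD and NTC libraries of a setup overlap in every panel.

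None of the 9 targets passed the test between KD and NTC in any setup. In 36 tests, 9 genes in each of 4 setups, DESeq2 called 0 at an adjusted p under 0.05, and 0 had an unadjusted p under 0.05. The background was the same, with 0% of 17806 to 18717 genes called in each setup. Few genes of any kind had an unadjusted p under 0.05 by DESeq2. They were 0 in agoshRNA, 17 in gRNA, 2 in pre-gRNA and 55 in syn-gRNA. With edgeR's quasi-likelihood test the counts were also 0 called and 0 at an unadjusted p under 0.05. The log2 differences of the members ran from -0.33 to 0.87, and their medians per setup from -0.08 to 0.10, against medians of 0.00 to 0.06 for all genes tested. KD and NTC libraries overlapped in CPM for all 9 genes in all 4 setups. Few genes of any kind escaped that overlap, 0.87% of all genes tested in agoshRNA, 2.3% in gRNA, 1.13% in pre-gRNA and 4.88% in syn-gRNA, so it does not mark out the members. The authors' deposited table gives an adjusted p of 1 for every member in every setup, as it does for all 43760 genes with such a value.

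How small a change could have been seen differed by setup and gene. In the syn-gRNA setup the standard errors of the log2 differences were 0.17 to 0.38. MDM2 there differed by 0.03 with a 95% interval from -0.36 to 0.43, and CDKN1A by -0.06 with an interval from -0.48 to 0.35. In the agoshRNA setup the standard errors were 0.43 to 0.94, and the interval for MDM2 reached from -1.42 to 1.52. For RRM2B it reached from -1.82 to 1.85. This model does not exclude changes within those limits. With the column letter as a block, the agoshRNA intervals were narrower. MDM2 then differed by -0.09 (SE 0.21, interval from -0.51 to 0.33) and RRM2B by -0.22 (SE 0.24, interval from -0.70 to 0.25).

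The member with the largest log2 difference between KD and NTC was GDF15 in the agoshRNA setup. KD libraries A, B and C had 5.90, 3.74 and 10.4 CPM. The NTC libraries A, B and C had 3.27, 1.64 and 6.41 CPM. Library B was lowest and library C highest in both arms, so the groups overlapped although KD exceeded NTC at each letter, by 0.85, 1.18 and 0.69 on the log2 scale. The DESeq2 log2 difference was 0.87 (SE 0.64, adjusted p = 1.00). These values rest on 25 to 121 counts per library. When the letter entered the model as a block, the log2 difference was 0.92 (SE 0.32), with an unadjusted p from the DESeq2 Wald test of 0.00406 and an adjusted p of 1.00, among 105 genes with an unadjusted p under 0.05. With the block 0 members were called in any setup, against a background of 0% in 3 setups and 0.0054% in syn-gRNA.

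The other members had differences of either sign. Over the 36 combinations of gene and setup, KD was higher at all 3 letters in 5 and lower at all 3 in 5. These shares lay near those of all genes tested over the 4 setups, of which 12.5% were higher and 13.9% lower at all 3 letters. FAS joined GDF15 as higher at every letter in the agoshRNA setup, by 0.07, 0.17 and 0.83 on the log2 scale, and its DESeq2 log2 difference was 0.34 (SE 0.51, adjusted p = 1.00). MDM2 and ZMAT3 were higher at every letter in the pre-gRNA setup, where CDKN1A, BBC3 and GDF15 were lower at every letter. The MDM2 log2 differences per letter in that setup were 0.49, 0.04 and 0.23, and those of CDKN1A were -0.43, -0.06 and -0.14. None of these passed the test.

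**Figure D2:**
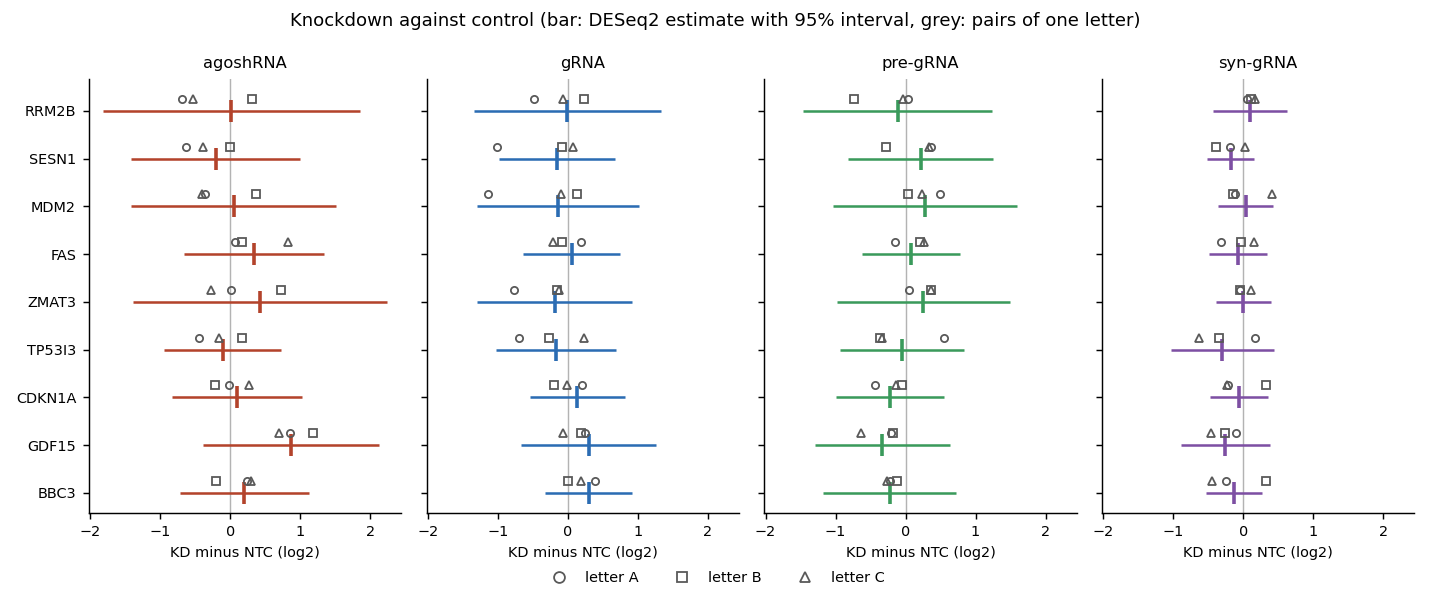
KD minus NTC on the log2 scale for the 9 genes in each setup, with the DESeq2 estimate and its 95% interval as coloured bars and the 3 same-letter pairs as grey symbols. Every interval includes 0, the intervals are narrowest in the syn-gRNA setup, and GDF15 in the agoshRNA setup lies farthest from 0 at 0.87.

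Tests of whether the KD effect differed between setups called 0 of 54, 9 genes in each of 6 pairs, and the background was 0% of 20172 genes in every pair. The differences of the log2 effect ran from -0.44 to 1.21, with 0 at an unadjusted p under 0.05 by DESeq2 and 0 by edgeR. Over all 20172 genes, DESeq2 gave such a p for 29 to 45 per pair. With the column letter within each setup as a block, 4 of the 54 had an unadjusted p under 0.05 by the DESeq2 Wald test, and 0 were called, the smallest adjusted p being 0.528.

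The spread between libraries of one group exceeded every log2 difference between KD and NTC for RRM2B, ZMAT3 and MDM2. Their pooled standard deviations within groups were 1.21, 1.04 and 1.00 on the log2 CPM scale, against at most 0.87 for a KD difference of any member. Those of the other 6 lay between 0.25 for TP53I3 and 0.64 for SESN1. In agoshRNA KD libraries A, B and C RRM2B had 3.35, 39.4 and 15.1 CPM, and in agoshRNA NTC libraries A, B and C it had 5.40, 31.6 and 21.7 CPM. Library A was low and library B high in both arms. In gRNA KD libraries A, B and C it had 5.58, 17.3 and 38.7 CPM, against 7.83, 14.7 and 40.7 CPM in the NTC libraries of the same letters. ZMAT3 ran from 4.07 CPM in pre-gRNA NTC library B to 41.5 CPM in agoshRNA KD library B. MDM2 ran from 9.91 CPM in agoshRNA KD library A to 80.4 CPM in gRNA NTC library C.

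Those 3 genes and SESN1 are among the 5 members of low GC content. The exons of RRM2B had 39.5% GC, SESN1 41.2%, MDM2 41.4%, FAS 42.1% and ZMAT3 43.2%, against a median of 49.5% over the genes tested. The other 4 were GC-rich, TP53I3 at 56.9%, CDKN1A at 58.6%, GDF15 at 60.2% and BBC3 at 64.5%. As a description over the 24 libraries, which share library preparation and depth differences, ZMAT3 rose and fell with the GC difference of the library at a Pearson r of 0.97. For MDM2 r was 0.95, and for SESN1 and RRM2B it was 0.93 each. CDKN1A, GDF15 and BBC3 ran the other way, with r of -0.62, -0.61 and -0.65. FAS had an r of 0.55 and TP53I3 of -0.11. Without the 2 libraries farthest from the median, agoshRNA KD library A and pre-gRNA KD library B, r was 0.96 for ZMAT3, 0.92 for MDM2, -0.55 for CDKN1A and -0.32 for TP53I3.

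MDM2, SESN1, ZMAT3 and RRM2B followed one another across libraries, CDKN1A, BBC3 and GDF15 did so less closely, and TP53I3 followed none of the members. MDM2 correlated at r of 0.96 with SESN1, 0.94 with ZMAT3 and 0.92 with RRM2B over the 24 libraries, and CDKN1A at 0.85 with BBC3 and 0.65 with GDF15. The r of TP53I3 with the other 8 lay between -0.16 and 0.14. MDM2 and CDKN1A, which are induced together by active p53, correlated at -0.56. After GC offsets, which subtract from each library the median deviation of genes of like GC content, MDM2 and SESN1 correlated at 0.23 and MDM2 and CDKN1A at -0.15. MDM2 with ZMAT3 stayed at 0.78 and CDKN1A with BBC3 at 0.76. FAS turned from 0.63 with MDM2 to -0.63. Other correlations grew in size with the offsets. TP53I3, which followed no member before them, went from -0.07 to -0.71 with FAS and from -0.04 to 0.57 with MDM2. BBC3 with RRM2B went from -0.37 to 0.62. Whether the correlations after offsets owe anything to p53 or to the offsets themselves was not tested.

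The offsets were chosen after the GC difference had been seen, and they did not narrow the spread of every member. The pooled standard deviation within groups on the log2 CPM scale went from 0.64 to 0.15 for SESN1, from 1.00 to 0.41 for MDM2, from 1.04 to 0.60 for ZMAT3 and from 1.21 to 0.54 for RRM2B. For CDKN1A it went from 0.40 to 0.28. It grew from 0.30 to 0.43 for FAS and from 0.25 to 0.34 for TP53I3. The median over the genes tested went from 0.44 to 0.33.

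**Figure D3:**
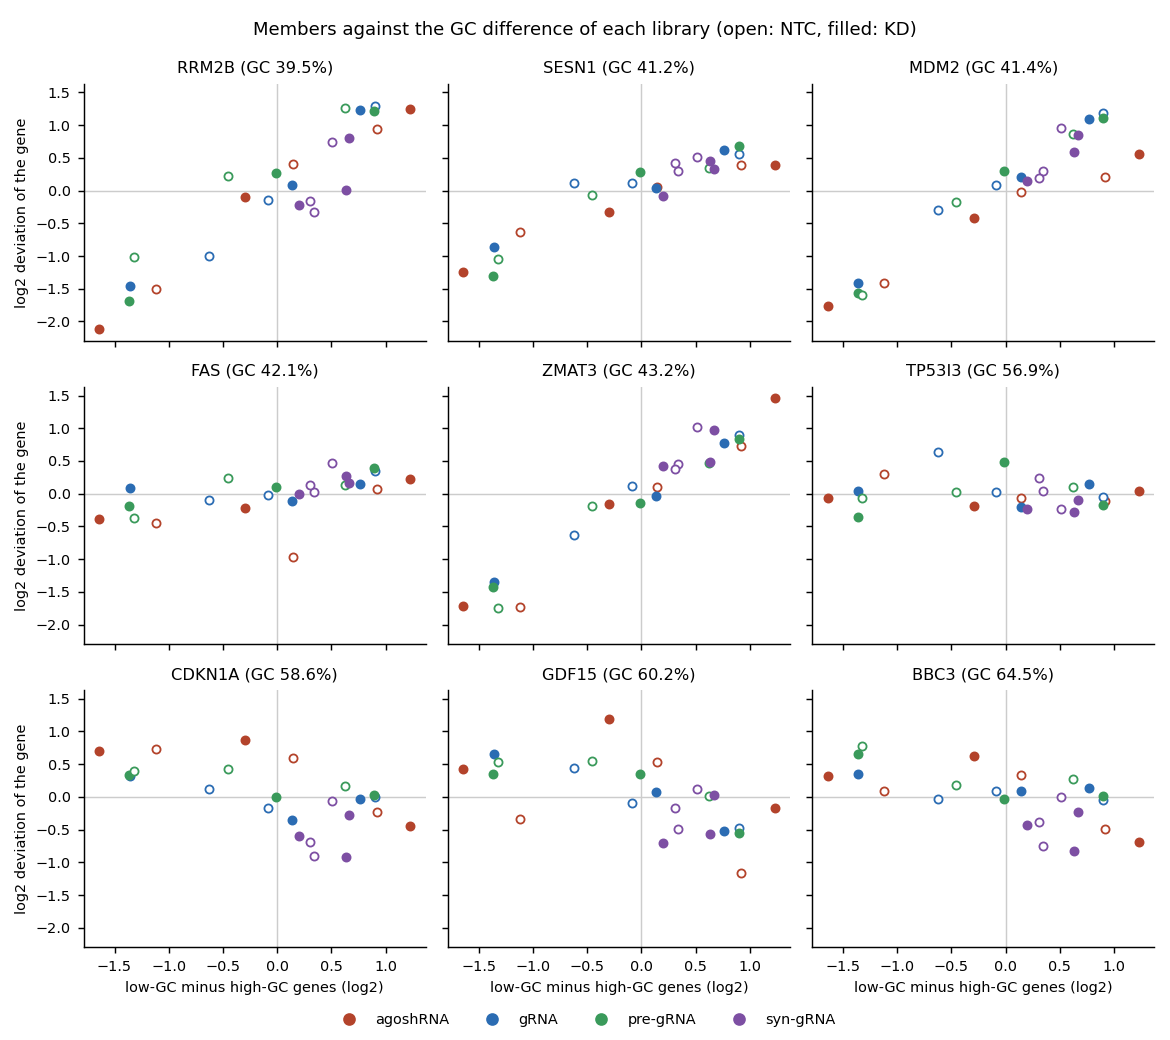
Log2 deviation of each gene from its mean over 24 libraries against the median log2 deviation of low-GC genes minus that of high-GC genes in the same library, one panel per gene in order of GC content, open for NTC and filled for KD, coloured by setup. The 4 genes RRM2B, SESN1, MDM2 and ZMAT3 climb with the GC difference (r of 0.93 to 0.97), while CDKN1A, GDF15 and BBC3 decline (r of -0.65 to -0.61).

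Between setups, CDKN1A came closest of the 9 to the test's threshold, between the agoshRNA vector and the synthetic guide. Its agoshRNA NTC libraries A, B and C had 65.0, 33.2 and 59.2 CPM, and the agoshRNA KD libraries 64.2, 28.5 and 71.7 CPM. The syn-gRNA NTC libraries A, B and C had 37.4, 20.6 and 24.1 CPM, and the syn-gRNA KD libraries 32.1, 25.7 and 20.5 CPM. In both arms 2 of the 3 agoshRNA libraries were far above all syn-gRNA libraries, while library B fell within their range. The medians over both arms were 61.7 CPM for agoshRNA, 46.8 for pre-gRNA, 38.7 for gRNA and 24.9 for syn-gRNA. All 6 pre-gRNA libraries lay above all 6 syn-gRNA libraries, at 39.2 to 52.9 against 20.5 to 37.4 CPM. Those of gRNA, at 30.4 to 49.2 CPM, overlapped both. How many of all genes separated pre-gRNA from syn-gRNA libraries in this way was not counted, so it does not mark out CDKN1A.

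The log2 difference of CDKN1A between agoshRNA and syn-gRNA was 0.92 among NTC libraries (SE 0.35, DESeq2 adjusted p = 0.171) and 1.08 among KD libraries (SE 0.35, adjusted p = 0.0580). Neither passed the threshold. With GC offsets the log2 differences were 0.78 (SE 0.24, adjusted p = 0.0239) and 0.77 (SE 0.24, adjusted p = 0.0216), and both passed. Leaving out agoshRNA KD library B gave 1.37 among KD libraries (adjusted p = 0.00372), and leaving out agoshRNA NTC library B, gRNA KD library A or pre-gRNA KD library B also brought that comparison past the threshold, with 1.08 each. Over all single libraries left out, the adjusted p ran from 0.00372 to 0.412 among KD and from 0.0811 to 0.634 among NTC libraries. By edgeR the adjusted p was 0.252 among NTC and 0.120 among KD libraries. The pre-gRNA setup exceeded syn-gRNA by 0.86 among NTC libraries (SE 0.35, adjusted p = 0.155) and by 0.68 among KD libraries (SE 0.35, adjusted p = 0.343).

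In the main model 0 of 54 member tests were called among NTC libraries and 0 of 54 among KD libraries, with 4 and 2 at an unadjusted p under 0.05. By edgeR the calls were also 0 and 0, with 4 and 2 at an unadjusted p under 0.05. Over 20172 genes, DESeq2 gave an unadjusted p under 0.05 for 2372 to 3591 in NTC pairs with syn-gRNA. In KD pairs with syn-gRNA it did so for 2695 to 3070. In pairs without syn-gRNA it did so for 104 to 567 among NTC and 47 to 448 among KD libraries. All member values under 0.05 by DESeq2 came from pairs with syn-gRNA. The background in the 3 pairs with syn-gRNA was 1.84% of 20172 genes for agoshRNA, 1.32% for gRNA and 3.25% for pre-gRNA among NTC libraries. Among KD libraries it was 3.14%, 1.58% and 2.52%. In the pairs without syn-gRNA it was 0.0496% (agoshRNA and gRNA), 0.0347% (agoshRNA and pre-gRNA) and 0% (gRNA and pre-gRNA) among NTC libraries, and 0.0446%, 0.0446% and 0% among KD libraries. With GC offsets the background against syn-gRNA was 6.81% for agoshRNA, 5.57% for gRNA and 8.64% for pre-gRNA among NTC libraries, and 8.15%, 5.06% and 7.68% among KD libraries. There CDKN1A was the 1 member called, in the agoshRNA pair of each arm. Setup, delivery and any batch of preparation cannot be told apart in these comparisons.

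BBC3 was above syn-gRNA in all 6 comparisons and GDF15 in 5 of 6 (4 of 6 with GC offsets), none with an adjusted p under 0.05. The medians of BBC3 were 33.6 CPM in pre-gRNA, 33.2 in agoshRNA, 30.5 in gRNA and 21.4 in syn-gRNA libraries. Its pre-gRNA and syn-gRNA NTC libraries differed by 0.83 on the log2 scale (SE 0.38, 95% interval from 0.09 to 1.56, adjusted p = 0.210). GDF15 differed by 1.10 between agoshRNA KD and syn-gRNA KD libraries (SE 0.51, 95% interval from 0.10 to 2.10, adjusted p = 0.261). Between the NTC libraries of these setups it differed by -0.02 (SE 0.51, adjusted p = 0.998). CDKN1A, BBC3 and GDF15 are GC-rich, and the GC difference was positive in all syn-gRNA libraries. TP53I3, also GC-rich, had log2 differences from syn-gRNA of -0.05 to 0.20. Whether the GC difference contributes to any of these values was not tested. With GC offsets, BBC3 in the pre-gRNA and syn-gRNA NTC pair differed by 0.45 (SE 0.26, adjusted p = 0.294), and GDF15 in the agoshRNA and syn-gRNA KD pair by 0.75 (SE 0.39, adjusted p = 0.240).

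Of the low-GC members, SESN1, MDM2, FAS and ZMAT3 had negative log2 differences from syn-gRNA in all 6 comparisons. None had an adjusted p under 0.05 in the main model. With GC offsets FAS was positive in 4 of the 6 and SESN1 in 1. FAS had 5.70, 8.35 and 3.81 CPM in agoshRNA NTC libraries A, B and C and 11.1, 8.09 and 8.75 CPM in the syn-gRNA NTC libraries. The groups overlapped through agoshRNA library B. The log2 difference was -0.63 (SE 0.29, 95% interval from -1.20 to -0.06, adjusted p = 0.316). Without agoshRNA NTC library B it was -1.05 and passed the threshold (adjusted p = 0.0279), and with GC offsets it was -0.35 (adjusted p = 0.629). ZMAT3 had the most negative log2 difference of all, between pre-gRNA and syn-gRNA NTC libraries, but its SE was 0.72 and its 95% interval ran from -2.41 to 0.41. The log2 difference of MDM2 between agoshRNA and syn-gRNA was -0.75 in each arm, with an SE of 0.67 both times (adjusted p = 0.785 for NTC and 0.675 for KD). RRM2B, whose means per group stayed between 18.3 and 22.1 CPM, differed by at most 0.18 from syn-gRNA in any arm, with an SE of 0.80.

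**Figure D4:**
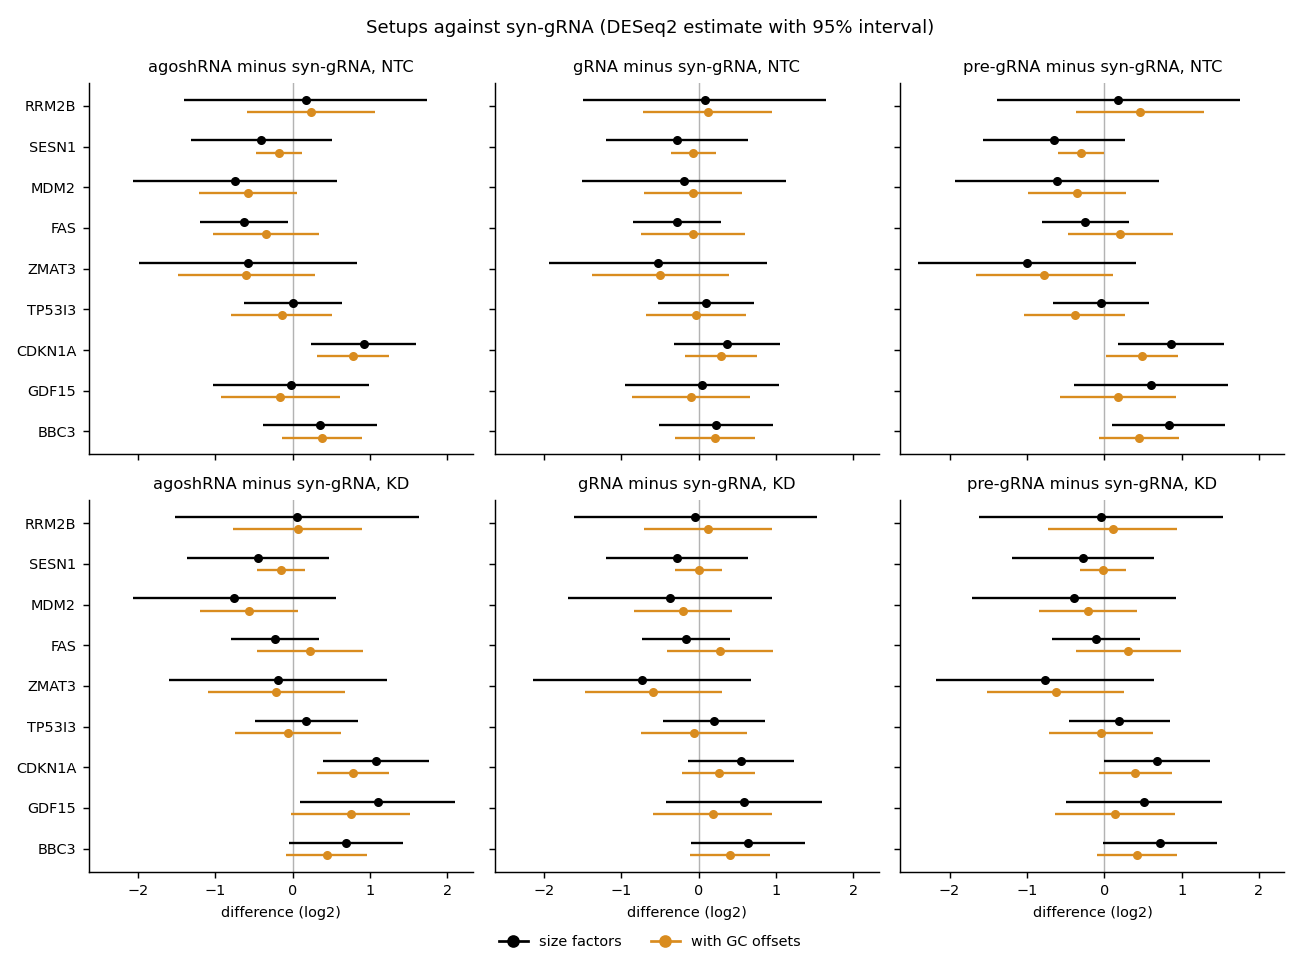
Log2 differences of the agoshRNA, gRNA and pre-gRNA setups from syn-gRNA for the 9 genes, NTC libraries above and KD libraries below, as DESeq2 estimates with 95% intervals using size factors (black) and GC offsets (orange). CDKN1A lies above 0 in every panel, and its agoshRNA intervals exclude 0 in both arms with either scaling.

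Further p53 targets, from a list of 29 of which 28 passed the filter, gave 0 calls between KD and NTC, and 2 of them, PLK2 and TNFRSF10B, were called between setups. Between KD and NTC 0 of 28 were called in each setup, with medians of -0.08 to 0.02 on the log2 scale against 0.00 to 0.06 for all genes, and 0 had an unadjusted p under 0.05 by DESeq2. The differences of the KD effect between setups gave 0 calls as well. The list gave 6 calls in 336 tests over all pairs of setups (1.79%), 5 of them for PLK2. All 6 calls were in pairs with syn-gRNA. Of all genes, 1.32% to 3.25% were called in the single pairs with syn-gRNA and at most 0.0496% in those without. The 1.79% spans both kinds of pair, so it cannot be set against the first range alone, and the list was not tested against other genes. PLK2, a polo-like kinase of the stress response, was lower than in syn-gRNA in 5 of 6 comparisons. Its CPM ran from 1.53 to 3.95 in agoshRNA, from 1.12 to 4.06 in gRNA, from 1.18 to 4.59 in pre-gRNA and from 7.19 to 10.0 in syn-gRNA libraries. None of the first 3 ranges touched the last, but how many of all genes were separated in this way was not counted.

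PLK2 fell by 1.58 on the log2 scale from syn-gRNA to agoshRNA among NTC libraries (SE 0.42, adjusted p = 0.0183) and by 1.54 among KD libraries (SE 0.42, adjusted p = 0.0154). Against pre-gRNA the differences were -1.70 (SE 0.42, adjusted p = 0.00577) and -1.51 (SE 0.42, adjusted p = 0.0191). In gRNA KD libraries PLK2 was lower by 1.93 (SE 0.43, adjusted p = 0.00229). Between gRNA and syn-gRNA NTC libraries the log2 difference was -1.35 (SE 0.42, adjusted p = 0.0651), which did not pass. By edgeR all 5 calls missed the threshold, with adjusted p from 0.0562 to 0.109. Each call was also lost without 1 or another single library, among them agoshRNA KD library A (-1.18, adjusted p = 0.183), pre-gRNA KD library B (-1.15, adjusted p = 0.118), gRNA KD library A (-1.62, adjusted p = 0.0754) and syn-gRNA KD library C (-1.46, adjusted p = 0.156, in the agoshRNA pair). With GC offsets all 6 passed.

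TNFRSF10B, the death receptor DR5, was the other member of that list to be called, and it is named after its values were seen. It had 74.5, 46.8 and 80.6 CPM in agoshRNA NTC libraries A, B and C, and its log2 difference from the syn-gRNA NTC libraries was 0.70 (SE 0.19, adjusted p = 0.0237). Without agoshRNA NTC library C the log2 difference was 0.51 (adjusted p = 0.222), and by edgeR the adjusted p was 0.148. Of 16 regulators of p53, among them MDM4, ATM and CHEK2, 0 were called in any comparison. Of all genes tested, 0% were called between KD and NTC or in the differences of the KD effect. The share was at most 0.0496% in pairs without syn-gRNA and 1.32% to 3.25% in pairs with it. The lack of calls therefore does not mark out the regulators. The medians of the regulators between KD and NTC were -0.12 to 0.15 on the log2 scale, against 0.00 to 0.06 for all genes.

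The genes whose pattern across libraries was most like that of CDKN1A were not p53 targets of these lists. Over the 13834 genes that averaged 50 counts or more, the 3 most like it by Spearman correlation of log2 CPM over the 24 libraries were TNFAIP1 at 0.96, AL021977.1 at 0.96 and PXDC1 at 0.96. None of them was on any list used here. TNFAIP1 and PXDC1 had 54.9% and 56.6% GC. BBC3 ranked 634 at 0.84 and GDF15 ranked 2471 at 0.67, while MDM2 stood at -0.56 and ZMAT3 at -0.64. The points share their libraries, depth and GC difference, so these are descriptions of the 24 libraries.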

How the data were processed

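The 4 tables deposited by the authors hold raw read counts per gene for 24 libraries. Per the submitters' processing notes, which name tools without roles, Trim Galore, STAR 2.7.3a, featureCounts and DESeq2 were used with hg19, and the annotation release is not given in the sources used here. Log2 fold changes and p-values in the authors' deposited tables come from their own comparison and are given once. A further 24 columns of normalized values per deposited table were not used.

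CPM are counts scaled by the library total, and RPKM divide CPM by the deposited exon length. Each setup was tested on its 6 libraries, and setups against each other in 1 model of 24 libraries with 1 coefficient per group, by DESeq2 1.42.0 (Wald test, R 4.3.3). Genes entered with 10 or more counts in 3 or more libraries, with Benjamini-Hochberg adjustment over all of them and a threshold of 0.05. The fits were run on simulated counts with known changes as a check of the code. The simulated spread was not taken from these libraries, so it does not show how small a change could be seen here. Alternatives were edgeR 4.0.16 with TMM factors, TMM factors in DESeq2, other filters, the column letter as a block, other libraries in the fit and leaving out each library.

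GC content came from GENCODE 29 (GRCh38) exons. GC offsets were the median log2 deviation of CPM plus 0.5 per library in 30 bins of GC content, used as normalization factors. The GC alternatives were added after seeing the data. The members, lists and markers were chosen with earlier results of these data known. Apart from the members, list genes were to be named if called between KD and NTC, or with the same sign in both arms of a pair of setups, at most 4 per direction. Over genes, the deviations of same-letter KD and NTC libraries from their group means correlated at 0.28 to 0.95 in all 12 pairs, so letters were taken to pair these libraries.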

Additional observations from a re-analysis of the deposited data

Results flagged for a closer look

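GDF15 had differences between KD and NTC of opposite sign in different setups, none of which passed the test. GDF15 here and ZMAT3 below were picked by this pattern, and the share of all genes with it was not counted. KD libraries exceeded NTC libraries at all 3 letters in the agoshRNA setup and lay below them at all 3 letters in the pre-gRNA and syn-gRNA setups. The effect in agoshRNA minus that in pre-gRNA was 1.21 on the log2 scale (SE 0.71, DESeq2 adjusted p = 1.00), and minus that in syn-gRNA it was 1.12 (SE 0.72, adjusted p = 1.00). With the letter as a block these were 1.28 (SE 0.33, adjusted p = 0.686) and 1.17 (SE 0.35, adjusted p = 0.986). Neither difference passed the test.

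ZMAT3 was lower in KD at all 3 letters in the gRNA setup and higher at all 3 in the pre-gRNA setup. The effect in gRNA minus that in pre-gRNA was -0.44 on the log2 scale (SE 1.02, adjusted p = 1.00), and -0.46 with the block (SE 0.26, adjusted p = 0.528), which did not pass the test either.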

How the results depend on the processing

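The number of members called stayed at 0 under every alternative in every comparison but agoshRNA against syn-gRNA. There, 1 member was called with GC offsets among NTC libraries and 1 among KD libraries (CDKN1A in both). Leaving out single libraries gave 0 to 1 called among NTC libraries (FAS, without agoshRNA NTC library B) and 0 to 1 among KD libraries (CDKN1A, without agoshRNA KD library B, agoshRNA NTC library B, gRNA KD library A or pre-gRNA KD library B). No direction reversed under the alternatives for CDKN1A and FAS between agoshRNA and syn-gRNA (FAS among NTC libraries), GDF15 between KD and NTC in agoshRNA, or the pairs in which PLK2, TNFRSF10B, DDIT4 or CHAC1 was called. Elsewhere GC offsets changed signs: FAS, negative against syn-gRNA in all 6 comparisons, was positive in 4 of them, GDF15 was positive in 4 instead of 5, and SESN1 was positive in 1 instead of 0. GDF15 in the agoshRNA setup kept log2 differences of 0.37 to 1.5 with single libraries left out. The counts of TP53I3 and GDF15, down to 20 and 25 per library, limit their precision.

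No paired analysis by the replicate numbers of the labels was possible because the columns carry letters that nothing links to those numbers. With the column letter as a replicate block, 0 of 36 members were called between KD and NTC and 0 of 54 in the differences of the KD effect. Over all genes the block gave 0 calls in 3 setups and 1 in syn-gRNA, 0.0054% of 18513.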

Other observations

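Of 10 genes of the integrated stress response, a translation-control pathway that also induces GDF15, 2 were called between setups, DDIT4 and CHAC1. They made 4 calls in 120 tests over all pairs of setups (3.33%), all 4 in pairs with syn-gRNA. Of all genes, 1.32% to 3.25% were called in the single pairs with syn-gRNA and at most 0.0496% in those without. The 3.33% spans both kinds of pair, and the list was not tested against other genes. In the comparisons where they were called, PLK2 was called as well. DDIT4, an inhibitor of mTORC1 signalling, had 181 to 255 CPM in syn-gRNA libraries and 479 to 686 CPM in pre-gRNA libraries, with no overlap. The share of all genes without overlap in that pair was not counted. The log2 difference of DDIT4 in that pair was 1.39 among NTC libraries (SE 0.34, DESeq2 adjusted p = 0.00459) and 1.23 among KD libraries (SE 0.34, adjusted p = 0.0180). It was 1.28 between gRNA and syn-gRNA KD libraries (SE 0.34, adjusted p = 0.0172). CHAC1, a glutathione-degrading enzyme, differed by 2.74 between agoshRNA and syn-gRNA KD libraries (SE 0.66, adjusted p = 0.00445). Its agoshRNA KD libraries A, B and C had 11.4, 12.3 and 52.4 CPM against at most 7.01 CPM in the syn-gRNA KD libraries, so library C stood far above the rest. Between KD and NTC 0 of the 10 were called in any setup. By edgeR all 4 calls missed the threshold, with adjusted p from 0.0502 to 0.0944. Each was lost without 1 or another single library, CHAC1 for example without agoshRNA KD library C (1.54, DESeq2 adjusted p = 0.287). With GC offsets all 4 passed. Both genes are named after their values were seen.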
